A study of Mus musculus with 55 samples.

Results

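The unfolded protein response and the integrated stress response of the liver were followed through 10 genes: Hspa5, Dnajb9, Herpud1, Xbp1, Atf4, Atf3, Ddit3, Trib3, Asns and Casp12. The rule is this list of names and uses no measured value, but the names were chosen with earlier results of these data known. The genes were taken from the 34492 gene symbols that both batches of count tables share. All 10 were listed in both batches, and all 10 passed the filter on low counts in every fit used here. The labelled tissue was whole liver, and the defining markers of hepatocytes were present throughout: none of the 8 markers examined, which include Alb and Apob, was at 0 in any library.

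When unfolded proteins gather in the endoplasmic reticulum (ER), the chaperone BiP, the product of Hspa5, leaves the sensors IRE1, PERK and ATF6. IRE1 splices the mRNA of Xbp1, ATF6 is cut to release a transcription factor, and PERK phosphorylates the initiation factor eIF2-alpha, which slows translation in general but favours that of Atf4. Other kinases that sense amino acid shortage, haem shortage or viral RNA phosphorylate the same factor, and this wider programme is called the integrated stress response. ATF4 raises Asns, Trib3, Atf3 and Ddit3, whose product CHOP is known for its part in cell death after lasting stress, and hepatocytes, which secrete most plasma proteins, are rich in the ER on which the response acts.

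The study asked what the loss of Rnf43 and Znrf3, membrane ubiquitin ligases that limit WNT signalling, does to the adult mouse liver at rest and in regeneration. R&Zdel mice carried floxed exons for the RING domain of both genes, deleted either with tamoxifen through AlbCreERT2, which drives Cre from the albumin promoter, or with an AAV8 virus that drives Cre from the hepatocyte promoter TBG. Littermate R&Zflox mice carried the same floxed alleles and received vehicle or a virus without Cre, so that all groups share the floxed alleles and the deletion reaches hepatocytes in the main. RNA of whole livers was read in 53 libraries, 23 in batch 1 and 30 in batch 2.

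Undamaged livers were taken at 1M, 3M and 7M, which are months after the deletion. At 1M there were 4 R&Zdel and 4 R&Zflox libraries, all of batch 2 and the virus, with 2 females in each genotype. At 3M there were 2 R&Zdel libraries, 1 male of batch 2 with the virus and 1 female of batch 1 with tamoxifen, and 5 R&Zflox libraries of males, 2 of batch 1 with vehicle for tamoxifen and 3 of batch 2 with the control virus. At 7M there were 5 R&Zdel and 5 R&Zflox libraries, 2 of batch 1 and 3 of batch 2 in each genotype, all of the tamoxifen model, with 1 R&Zflox female. Chronic damage (CD) was made with repeated injections of carbon tetrachloride (CCl4), a hepatotoxin that pericentral hepatocytes activate, in the tamoxifen model, with tamoxifen given again during the study. These livers were taken 4, 50 and 170 days after the last dose (CD 4d, 50d and 170d), all from males and all in batch 1, with 2 libraries for each genotype and time except for R&Zflox CD 50d, which had 1. Partial hepatectomy (PHx), the removal of part of the liver, was done in the virus model, and livers were taken after 7 and 21 days from 3 mice of each genotype and time, all of batch 2 and all male except 1 R&Zdel mouse at 21 days. All mice were adult C57BL/6. The labels of 6 libraries of batch 1 conflict, and 5 of them entered no comparison. The other, the female R&Zdel library of 3M (replicate 4), is titled 7M, and was used as 3M after its stated time point.

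Libraries held 11721687 to 38692089 counted reads (median 22982428), and between 15659 and 18547 genes were detected in batch 1 and between 11173 and 13876 in batch 2. The reads of whole genes do not check the deletion of single exons, and the whole-gene level of Rnf43 was higher in R&Zdel livers (46.9 to 52.2 CPM at 1M against 3.34 to 17.9 in R&Zflox). The 8 WNT targets examined, which include Glul and Axin2, summed to 24072 to 32773 CPM in the 3 undamaged R&Zdel libraries of batch 1 and to 9415 to 11266 in the 4 R&Zflox libraries. CPM are the counts of a gene for every 1000000 counts of its library. Fold changes were instead fitted on edgeR's TMM scale, which multiplies each total by a factor: 1.27 and 1.42 for the 2 R&Zdel CD 4d libraries and 0.82 to 1.19 for the 9 other CD libraries. A fitted log2 fold change in R&Zdel at CD 4d is therefore lower than the ratio of the CPM, for every gene. A gene was said to rise or fall where the Benjamini-Hochberg adjusted p of edgeR's quasi-likelihood test, over all genes of the fit, was below 0.1.

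The upstream sequences of Hspa5 and Herpud1 are shown because they hold the published ER stress response elements, letter for letter, in different arrangements. The RefSeq promoter table (GRCm38.p6, the assembly of mm10) gave 250 bases before to 50 after the start of each of the 10 genes. The 120 bases before each start are printed on the sense strand, 5′ to 3′, with the fixed letters of the element in capitals, at chr2:34771970-34772089 (+) for Hspa5 and chr8:94386309-94386428 (+) for Herpud1.
Hspa5: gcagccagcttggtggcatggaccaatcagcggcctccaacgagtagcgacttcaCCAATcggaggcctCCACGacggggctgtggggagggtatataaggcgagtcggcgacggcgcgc
Herpud1: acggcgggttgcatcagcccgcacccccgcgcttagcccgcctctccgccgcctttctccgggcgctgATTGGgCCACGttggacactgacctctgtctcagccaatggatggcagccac
The element of Hspa5 is the ER stress response element (ERSE), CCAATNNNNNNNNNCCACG, which lies between positions -65 and -47 from the start. Searched on both strands, it was in 39 of 32851 promoters (0.119%) and, of the 10 genes, in Hspa5. The element of Herpud1 is ERSE-II, which is ATTGG and CCACG with 1 base between them, from position -52 to -42, which was in 12 of the 32851 promoters (0.0365%) and, of the 10 genes, in Herpud1. The letters of these elements overlap those of the CCAAT box and of CCACG, which alone were in 37.4% and 32.8% of all promoters. The cAMP-type element TGACGTCA (1.79% of promoters), the XBP1 element GACGTGG (2.42%) and the C/EBP-ATF element in the form TGATGNAAT (0.965%) were in 0 of the 10. Forms of the last element with another final base were not searched or counted. The windows of Asns (TGATGAAAC), Atf3, Herpud1 and Trib3 hold such forms on either strand. A match is a match of letters only, and a window without one says nothing about the factor.

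The genes are described by their roles, with the span that the count tables give each on mm10. Hspa5 (chr2:34772090-34776529, plus strand) encodes BiP, the main chaperone of the ER, and Dnajb9 (chr12:44205897-44210068, minus) a cochaperone of BiP that IRE1 and XBP1 raise. Herpud1 (chr8:94386429-94395371, plus) encodes a membrane protein of the ER that serves the degradation of misfolded proteins. Xbp1 (chr11:5520641-5525993, plus) encodes the transcription factor made from the mRNA that IRE1 splices, and whole-gene counts do not tell the spliced form from the unspliced. Atf4 (chr15:80255184-80257545, plus) is regulated in large part by translation, which these counts do not measure, and Atf3 (chr1:191170296-191183333, minus) and Ddit3 (chr10:127290793-127296291, plus) encode transcription factors downstream of it. Trib3 (chr2:152337425-152344060, minus) encodes a pseudokinase that CHOP and ATF4 raise, and Asns (chr6:7675165-7693209, minus) the asparagine synthetase. Casp12 (chr9:5345442-5373034, plus) encodes a caspase found at the ER of the mouse. Counting did not use strand, so reads of overlapping antisense transcripts would be included.

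Per length of exon the levels of the 10 genes spread widely over the 18 assigned libraries of batch 1. The median level was 175 CPM per kb for Herpud1, 150 for Hspa5 and 130 for Xbp1, followed by Atf4 (54.4) and Dnajb9 (18.9). Trib3 (4.61), Ddit3 (3.68), Asns (1.31), Atf3 (1.22) and Casp12 (0.50) were low. Neighbours in this order overlapped in their ranges over libraries. Batch 2 had the same 5 genes at the top, with Hspa5 (185 CPM per kb) above Herpud1 (138). Some of the low genes were hardly read there: Atf3 was at 0 in 16 of the 30 libraries of batch 2, Casp12 in 14, Asns in 11 and Trib3 in 5. A count of 0 allows up to 3 counts, which is 0.101 to 0.256 CPM in those libraries and covers counting error only, and no fitted fold change is given for these 4 genes in fits that use batch 2. Over the libraries of batch 1, Atf4 varied least, with a ratio of 2.37 between its highest and lowest CPM, whereas Asns varied 38-fold, Casp12 32-fold and Atf3 25.3-fold.

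In undamaged livers 0 of the 10 genes differed between the genotypes past the threshold at 1M, 3M or 7M by edgeR's quasi-likelihood test over 12822 genes. That test called 0.499% of all genes at 1M, 0.226% at 3M and 0.484% at 7M. At 1M 30 genes were higher and 34 lower on the TMM scale, and 43 higher and 19 lower with library totals alone, on which the median of all genes lay 0.17 higher. At an unadjusted p below 0.05 there were 2 of the 10 genes at 1M (7.76% of all genes), Hspa5 and Casp12, and 0 at 3M (6.45%) and at 7M (8.61%). DESeq2 called 1 of the 10 at 1M, Casp12 (2.85% of all genes), and 0 at 3M (1.19%) and 7M (2.17%). The likelihood ratio test of edgeR also called Casp12 at 1M (1.57% of all genes) and 0 at 3M (0.515%) and 7M (0.788%).

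The chaperone gene Hspa5 was at 374.1, 391.2, 476.6 and 587.0 CPM in the R&Zdel livers at 1M and at 671.9, 697.4, 741.3 and 1051 CPM in R&Zflox. The 2 genotypes did not overlap, the log2 fold change was -0.98 (SE 0.33, n = 4 and 4), and the adjusted p was 0.311 (unadjusted p 0.00716). At 7M the genotypes overlapped for Hspa5, and the log2 fold change was -0.20 (SE 0.30, adjusted p = 0.923, edgeR, n = 5 and 5). Casp12 was at 0.0477, 1.13, 1.49 and 7.05 CPM in R&Zdel at 1M and at 0 in all 4 R&Zflox libraries. The lowest R&Zdel value is no more than a count of 0 allows, so that this library is not apart from R&Zflox at this depth. No fold is given. Ddit3 at 7M was at 9.51, 17.2 and 19.2 CPM in the R&Zdel livers of batch 2 and at 1.14, 5.72 and 6.56 CPM in those of R&Zflox. In batch 1 at the same age it was at 8.35 and 10.8 CPM against 8.82 and 12.0 CPM, so that the genotypes were apart in one batch and overlapped in the other (both batches, log2 fold change 1.11, SE 0.56, adjusted p = 0.603, edgeR). The cochaperone gene Dnajb9 was at 4.02, 6.25 and 46.4 CPM in R&Zdel at 7M in batch 2 and at 36.3, 38.2 and 76.7 CPM in R&Zflox, which overlapped. Atf4 lay between 54.0 and 125.2 CPM in all 25 assigned undamaged libraries. The genotype difference did not change with age past the threshold for any of the 10 genes (0 called in each of the 3 pairs of ages, as for 0% of all genes). Between 1M and 3M, 2 of 10 were below an unadjusted p of 0.05 (5.12% of all genes), DESeq2 called 1 (0.692%) and the likelihood ratio test 0 (0.039%). Between 1M and 7M these were 1 (5.68%), 1 (0.889%) and 0 (0.25%), and between 3M and 7M 1 (4.07%), 0 (0.263%) and 0 (0%). The gene called by DESeq2 was Casp12 both times.

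At 4 days after the last dose of CCl4, 4 of the 10 genes differed between the genotypes past the threshold, and the others did not. Ddit3, Atf3, Casp12 and Dnajb9 were higher in R&Zdel, and 0 of the 10 genes were lower. Among all 11295 genes tested 27.6% were called and 14.5% were called higher, so that a large part of the transcriptome moved with them. In bulk liver fewer cells of a type and less RNA per cell cannot be told apart.

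Atf3 was at 15.5 and 22.3 CPM in the 2 R&Zdel livers at CD 4d and at 1.47 and 2.44 CPM in the 2 R&Zflox livers. Both R&Zdel values lay above every other library of batch 1, and the log2 fold change was 2.78 (SE 0.33, adjusted p = 0.0018, edgeR). Ddit3, the gene of CHOP, was at 29.1 and 51.9 CPM against 6.29 and 3.96 CPM. Here too both R&Zdel livers lay above all others of batch 1, and the log2 fold change reached 2.47 (SE 0.30, adjusted p = 0.0018). Casp12, which the study also names among its differing genes after CCl4, was at 8.62 and 16.5 CPM against 0.899 and 1.96 CPM, again without overlap. Its log2 fold change was 2.63 (SE 0.60, adjusted p = 0.0202), and it did not pass without R&Zdel replicate 2 (2.20, adjusted p = 0.103) or without R&Zflox replicate 1 (2.19, adjusted p = 0.141).

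Of the ER genes, Dnajb9 passed at CD 4d. It was at 43.1 and 93.1 CPM in R&Zdel and at 21.4 and 22.96 CPM in R&Zflox, without overlap, and the log2 fold change was 1.10 (SE 0.32, adjusted p = 0.0432). It did not pass without R&Zdel replicate 2 (0.57, adjusted p = 0.275), and without R&Zflox replicate 1 or 2 the adjusted p was 0.194 or 0.151. Nor did it pass with the 2 R&Zflox libraries of CD 170d that the study also lists under 50 days placed there (1.10, adjusted p = 0.144). Hspa5 was at 442.6 and 942.1 CPM against 301.3 and 403.8 CPM, with the higher R&Zdel value in replicate 2, and did not pass (0.46, SE 0.39, adjusted p = 0.428). Herpud1 was at 226.8 and 336.2 CPM against 236.9 and 229.9 CPM, and Xbp1 at 245.9 and 327.0 CPM against 169.8 and 291.8 CPM. Both overlapped between the genotypes (log2 fold changes -0.23, SE 0.23, and -0.18, SE 0.27).

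Upstream of these, Atf4 was at 122.8 and 127.9 CPM in R&Zdel at CD 4d and at 91.3 and 92.8 CPM in R&Zflox. The CPM did not overlap, but on the TMM scale the log2 fold change was -0.04 (SE 0.22, adjusted p = 0.908). Its targets Trib3 (6.69 and 10.9 CPM against 9.42 and 5.52 CPM) and Asns (19.1 and 3.81 CPM against 4.43 and 8.80 CPM) overlapped between the genotypes. The median log2 fold change was 0.41 over the 10 genes and 0.05 over all genes tested. With library totals alone, without the TMM factors, the median of all genes lay 0.49 higher on the log2 scale, and the calls over all genes went from 1633 higher and 1483 lower to 4349 higher and 454 lower. On that scale 5 of the 10 genes were called, all higher: the 4 named above and Hspa5 (0.97, adjusted p = 0.0933, edgeR).

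Markers of other cells moved with these genes at CD 4d. The 6 cholangiocyte markers, which include Krt19 and Epcam, summed to 3527 and 6287 CPM in R&Zdel and to 87.2 and 156.9 CPM in R&Zflox, and 6 of 6 rose. Of the 7 stellate cell and fibroblast markers 3 rose (254.8 and 774.8 CPM against 63.5 and 102.9 CPM, summed), and of the 5 proliferation markers the 3 tested all rose (118.4 and 136.2 CPM against 16.9 and 38.7 CPM). Macrophage markers summed to 651.8 and 1316 CPM against 792.0 and 1967 CPM, and 2 of 8 fell. Endothelial markers summed to 85.5 and 181.2 CPM against 206.8 and 209.0 CPM, and 3 of 5 fell. Of the 10 immediate early genes, which respond within minutes to stimuli that include the handling of tissue, 9 were tested, 4 rose and 1 fell (248.5 and 298.9 CPM against 149.9 and 138.5 CPM). Hepatocyte markers gave 0 of 8 past the threshold. In each genotype replicate 2 had the larger sums of stellate and macrophage markers. The part of these cells in the rise of Atf3, Ddit3, Casp12 and Dnajb9 was not tested.

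**Figure D1:**
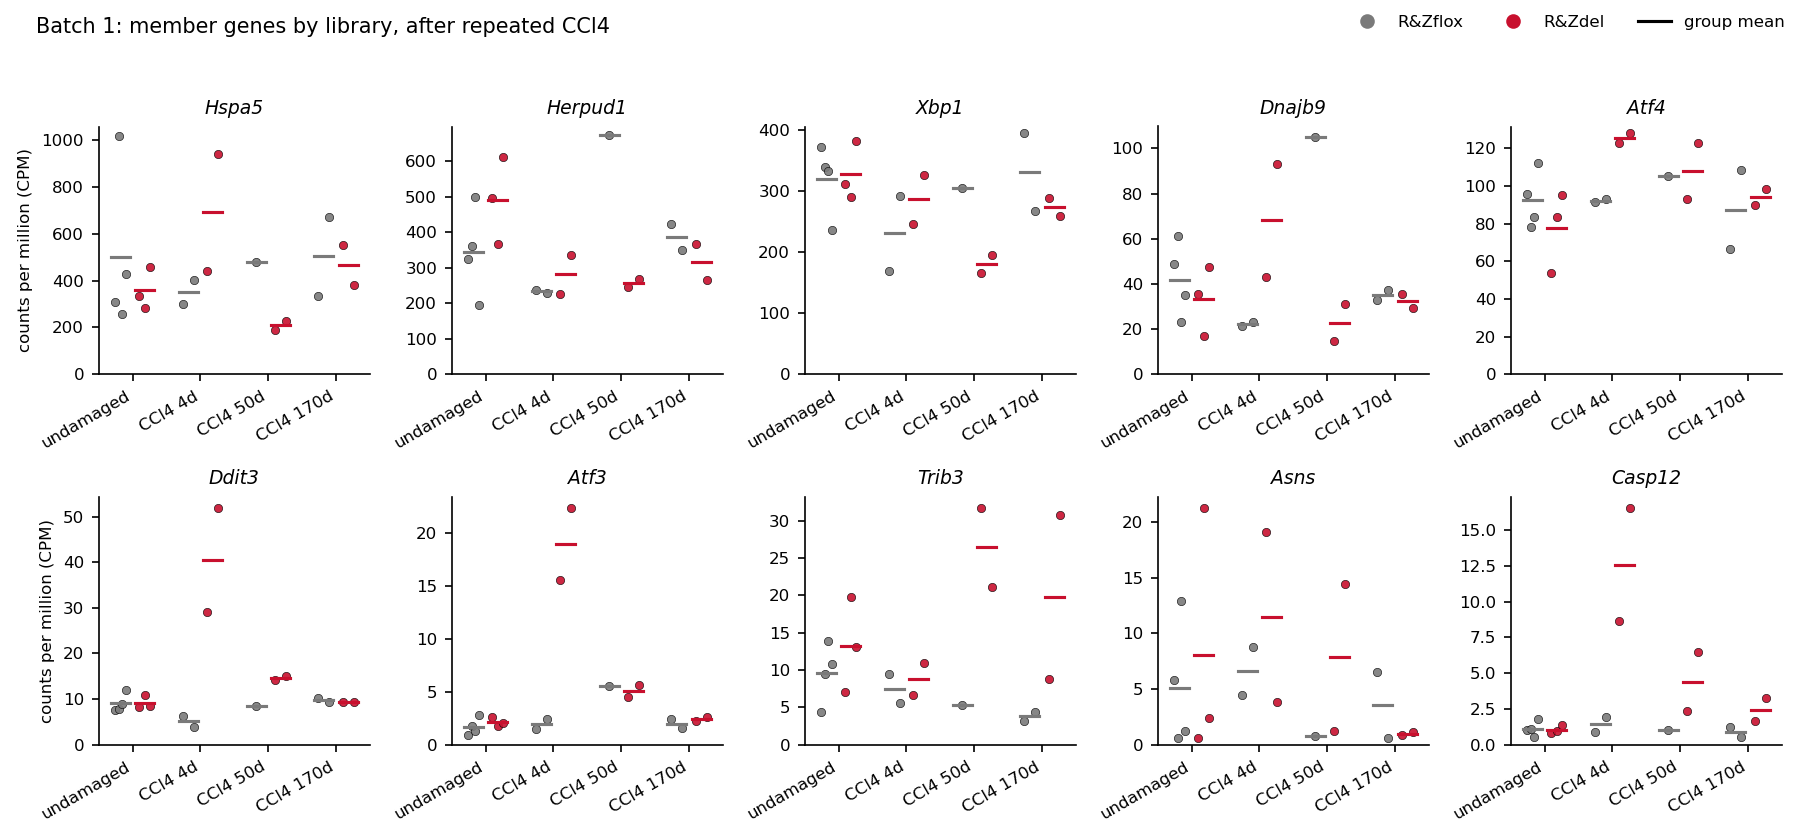
Each panel plots 1 gene, with the level of each batch 1 library in CPM on the vertical axis and the condition on the horizontal axis (undamaged livers of 3M and 7M pooled, then 4, 50 and 170 days after the last CCl4 dose); points are libraries and bars group means. Ddit3, Atf3 and Casp12 were highest in the 2 R&Zdel livers at 4 days, whereas Herpud1 and Dnajb9 were highest in the single R&Zflox liver at 50 days.

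At 50 days after the last dose Dnajb9 and Herpud1 fell in R&Zdel, 2 of the 10 genes, 0 rose, and 6.68% of all genes were called (3.63% lower). At an unadjusted p below 0.05 there were 6 of the 10 (22.8% of all genes), while DESeq2 (13.2%) and the likelihood ratio test (11.9%) each called 5 of 10, adding Hspa5, Xbp1 and Trib3. The comparison has 2 R&Zdel livers and 1 R&Zflox liver, which is assumed to vary like the other groups. The sample list of the study gives the 2 R&Zflox libraries of CD 170d under 50 days as well. With them placed at 50 days 6 of the 10 genes were called, and the calls over all genes rose as well, to 3078.

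Dnajb9 was at 14.5 and 30.9 CPM in R&Zdel and at 105.2 CPM in R&Zflox at CD 50d, and the genotypes differed by -2.47 on the log2 scale (SE 0.37, adjusted p = 0.045). Herpud1 was at 244.6 and 269.0 CPM against 673.7 CPM (-1.59, SE 0.27, adjusted p = 0.0504). For both genes the single R&Zflox value was the highest of all assigned batch 1 libraries, and neither gene passed without R&Zdel replicate 1 (adjusted p = 0.147 for each). Hspa5 was at 188.8 and 228.3 CPM against 477.9 CPM (-1.41, SE 0.46, adjusted p = 0.123), and Xbp1 at 165.4 and 194.7 CPM against 304.5 CPM (-0.97, SE 0.33, adjusted p = 0.132). The 2 R&Zdel livers had the lowest Hspa5 of the assigned batch 1 libraries, and the R&Zflox value was inside the range of the undamaged ones.

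Neither the genes downstream of ATF4 nor Casp12 passed at CD 50d in edgeR's quasi-likelihood test. Trib3 was at 31.7 and 21.2 CPM in R&Zdel and at 5.28 CPM in R&Zflox (log2 fold change 2.16, SE 0.75, adjusted p = 0.14, edgeR). Casp12 was at 2.32 and 6.51 CPM against 0.999 CPM (1.87, SE 0.80, adjusted p = 0.207), and Ddit3 at 14.1 and 14.97 CPM against 8.48 CPM (0.58, SE 0.35, adjusted p = 0.358). R&Zdel was above R&Zflox for each of these 3, without passing the threshold. Atf3 (4.47 and 5.59 CPM against 5.56 CPM) and Atf4 (92.9 and 123.0 CPM against 105.2 CPM) overlapped. Asns was at 1.25 and 14.4 CPM against 0.7996 CPM, so that its 2 R&Zdel livers differed more from each other than the lower one did from R&Zflox. The median log2 fold change was -0.27 over the 10 genes and 0.05 over all genes. With library totals alone the median of all genes lay 0.22 higher, the calls over all genes went from 344 higher and 410 lower to 208 higher and 49 lower, and Dnajb9 (-2.21, adjusted p = 0.0826) and Herpud1 (-1.39, adjusted p = 0.0804) still passed. Cholangiocyte markers summed to 587.9 and 1144 CPM in R&Zdel and to 100.1 CPM in R&Zflox, with 1 of 6 called, and stellate markers to 162.0 and 256.1 CPM against 41.6 CPM, and their part was not tested.

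At 170 days 0 of the 10 genes were called (edgeR's quasi-likelihood test, 0.655% of all genes, 48 higher and 26 lower, or 63 and 20 with library totals alone, whose median lay 0.21 higher), against 1 at an unadjusted p below 0.05 (9.25% of all genes) and 1 each by DESeq2 (3.06%) and the likelihood ratio test (2.75%). That gene was Trib3, at 8.75 and 30.8 CPM in R&Zdel and at 3.16 and 4.42 CPM in R&Zflox. The genotypes did not overlap, and the log2 fold change was 2.18 (SE 0.58, adjusted p = 0.228). Ddit3 (9.33 and 9.38 CPM against 10.2 and 9.36 CPM) and Atf3 (2.26 and 2.59 CPM against 2.38 and 1.55 CPM) lay within the range of the undamaged libraries of batch 1. Herpud1 was at 366.8 and 266.2 CPM against 423.7 and 348.8 CPM (-0.49, SE 0.23, adjusted p = 0.581), and the 2 R&Zflox values lay on both sides of the higher R&Zdel value.

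**Figure D2:**
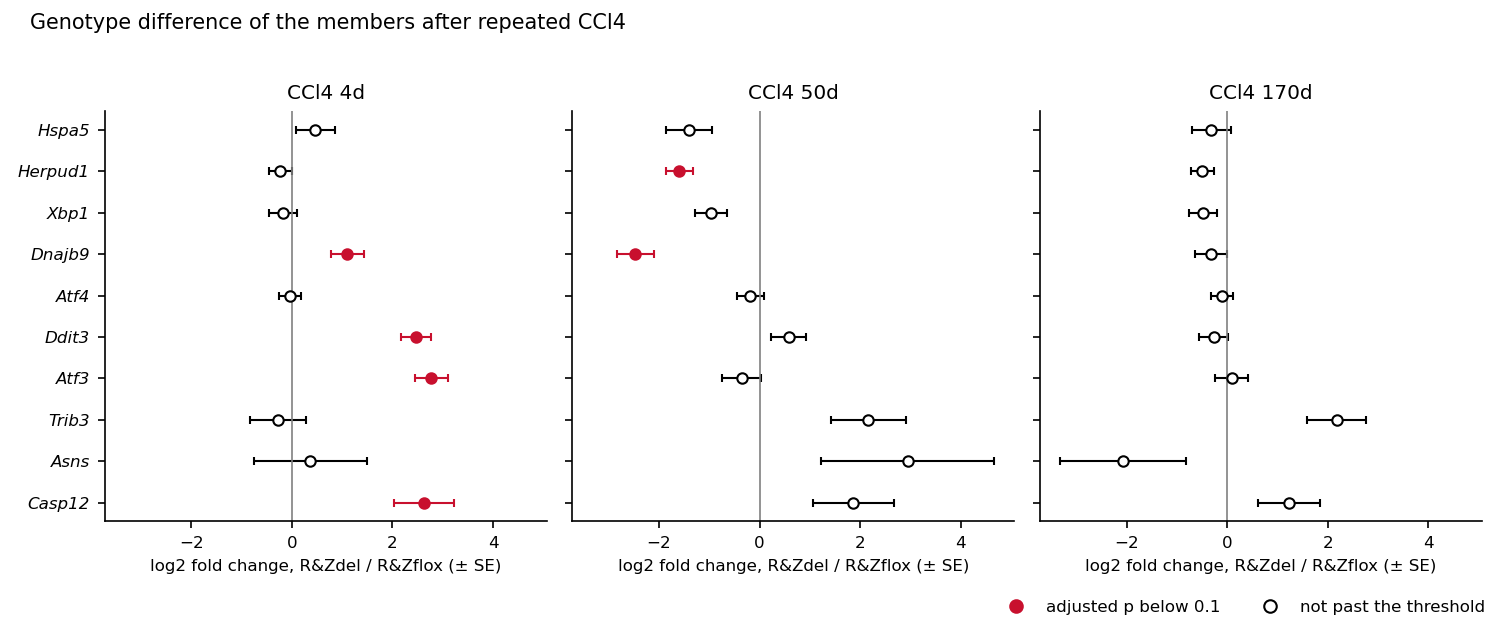
The log2 fold change of R&Zdel against R&Zflox (horizontal axis, TMM scale, bars are SE) is plotted for the 10 genes at 4, 50 and 170 days after the last CCl4 dose, with filled red points where the adjusted p was below 0.1. Atf3, Ddit3, Casp12 and Dnajb9 lie to the right at 4 days, Dnajb9 and Herpud1 to the left at 50 days, and no point is red at 170 days.

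The genotype difference itself changed between the times. From 4 to 50 days it fell by 3.57 on the log2 scale for Dnajb9 (SE 0.50, adjusted p = 0.0324) and by 3.13 for Atf3 (SE 0.49, adjusted p = 0.0408), 2 of the 10 genes, against 1.52% of all genes called (0.815% lower). From 4 to 170 days it fell by 2.73 for Ddit3 (SE 0.41, adjusted p = 0.0196) and by 2.68 for Atf3 (SE 0.46, adjusted p = 0.0257), 2 of the 10 against 7.57% (3.87% lower). Both differences use the same CD 4d libraries. With library totals alone the medians of all genes lay 0.27 and 0.29 lower, and the calls went from 80 higher and 92 lower to 29 and 81 for the first, and from 418 and 437 to 196 and 507 for the second. The genes called among the 10 were the same. The first did not pass for Atf3 without R&Zdel CD 4d replicate 2, R&Zdel CD 50d replicate 1 or either R&Zflox CD 4d replicate (adjusted p 0.106 to 0.16), nor for Dnajb9 without either R&Zflox CD 4d replicate (0.116 and 0.153). The second did not pass for Atf3 without R&Zdel CD 170d replicate 2 (0.103) or R&Zflox CD 4d replicate 1 (0.11). Age and the time after damage go together in these groups and cannot be told apart.

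Each genotype was also set against its own undamaged livers of batch 1, 3 R&Zdel and 4 R&Zflox libraries of 3M and 7M, with sex in the fit. All comparisons of a genotype share these undamaged libraries. They pool 3M and 7M, so that no CD group was set here against livers of its own time after deletion alone. By the paper's timing CD 4d came sooner after deletion than 3M, CD 50d fell at 3M and CD 170d at 7M. Damage and time after deletion therefore cannot be told apart at CD 4d, and the pooled reference does not separate them fully at CD 50d and 170d. The same holds for the differences of response drawn from these comparisons. In R&Zflox at CD 4d, Ddit3 fell (1 of 10, against 8.21% of all genes called, 3.58% lower). It was at 6.29 and 3.96 CPM after damage and at 7.50, 7.79, 8.82 and 12.0 CPM before, without overlap (log2 fold change -0.84, SE 0.26, adjusted p = 0.08, edgeR). Over all genes 582 were higher and 450 lower, or 659 and 289 with library totals alone, whose median lay 0.10 higher. The call of Ddit3 did not pass with library totals alone, in males alone, or without any 1 of R&Zflox CD 4d replicate 2, R&Zflox 7M replicates 1 and 5 and R&Zflox 3M replicate 3 of batch 1. Atf3 was not raised past the threshold in R&Zflox at CD 4d (0.28, SE 0.37, adjusted p = 0.745), where 1.47 and 2.44 CPM lay inside the undamaged range of 0.882 to 2.81 CPM. At CD 50d and 170d 0 of the 10 genes were called in R&Zflox (0.00796% of all genes at each time). At an unadjusted p below 0.05 there were 3 of 10 at 50 days (2.53% of all genes) and 0 at 170 days (8%). The likelihood ratio test called 1, Atf3, at 50 days (0.0398%) and 0 at 170 days (1.66%), and DESeq2 called 0 at both (0.0159% and 1.33%).

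In R&Zdel at CD 4d, 5 of the 10 genes were called against undamaged livers, where 52.3% of all genes were called (28% higher, 24.3% lower). Atf3 rose from 1.80 to 2.61 CPM in the 3 undamaged livers to 15.5 and 22.3 CPM (log2 fold change 2.63, SE 0.37, adjusted p = 0.000242, edgeR). Casp12 rose from 0.783 to 1.39 CPM to 8.62 and 16.5 CPM (3.25, SE 0.53, adjusted p = 0.000509), and Ddit3 from 8.35 to 10.8 CPM to 29.1 and 51.9 CPM (1.55, SE 0.25, adjusted p = 0.00052). None of these 3 genes overlapped between undamaged and damaged R&Zdel livers, but the share of all genes without overlap was not computed. Herpud1 fell from 365.6 to 611.1 CPM to 226.8 and 336.2 CPM (-1.57, SE 0.39, adjusted p = 0.00575), also without overlap. Xbp1 fell by 0.90 on the TMM scale (SE 0.29, adjusted p = 0.0227), while its CPM overlapped (245.9 and 327.0 against 290.1 to 382.1). With library totals alone the median of all genes lay 0.65 higher, the calls over all genes went from 3515 higher and 3058 lower to 6892 and 939, Xbp1 did not pass (-0.24, adjusted p = 0.485) and Atf4 (0.85) and Dnajb9 (1.16) did, both higher. Xbp1 also did not pass without R&Zdel CD 4d replicate 1 (-0.76, adjusted p = 0.131). Against the same undamaged livers, cholangiocyte markers went from 58.4 to 149.6 CPM in sum to 3527 and 6287 CPM (6 of 6 higher), stellate markers from 21.8 to 42.5 CPM to 254.8 and 774.8 CPM (5 of 7 higher), and WNT targets from 24072 to 32773 CPM to 4057 and 2874 CPM (7 of 8 lower). Their part in these results was not tested. WNT targets were also lower in R&Zflox at CD 4d, at 2120 and 2868 CPM against 9415 to 11266 CPM in its undamaged livers.

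In R&Zdel at CD 50d, 4 of the 10 genes were called against undamaged livers (36.2% of all genes, 18.1% higher and 18% lower). Xbp1 fell from 290.1 to 382.1 CPM to 165.4 and 194.7 CPM (-1.23, SE 0.29, adjusted p = 0.0124) and Herpud1 from 365.6 to 611.1 CPM to 244.6 and 269.0 CPM (-1.35, SE 0.38, adjusted p = 0.0247), both without overlap. Casp12 rose by 2.03 (SE 0.53, adjusted p = 0.0173) and Atf3 by 1.06 (SE 0.38, adjusted p = 0.0537), from ranges of 0.783 to 1.39 CPM and 1.80 to 2.61 CPM. Without R&Zdel CD 50d replicate 2 neither Casp12 (1.37, adjusted p = 0.158) nor Herpud1 (-1.23, adjusted p = 0.131) passed. Atf3 did not pass without R&Zdel CD 50d replicate 1 or 2, R&Zdel 7M replicate 2 or R&Zdel 3M replicate 4 (adjusted p 0.112 to 0.145). With library totals alone the median of all genes lay 0.32 higher and the calls over all genes went from 2276 higher and 2267 lower to 3655 and 888, and Atf4 (0.64, adjusted p = 0.0575) and Ddit3 (0.73, adjusted p = 0.0703) passed as well, both higher. Cholangiocyte markers (5 of 6) and stellate markers (6 of 7) were higher and WNT targets (3 of 8) lower than in the undamaged livers, and their part was not tested. At CD 170d 0 of 10 were called in R&Zdel (edgeR's quasi-likelihood test, 0% of all genes), with 3 at an unadjusted p below 0.05 (8.77%) and 0 by DESeq2 (0.772%) and by the likelihood ratio test (0.971%).

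The response to damage differed between the genotypes at CD 4d for 3 of the 10 genes, all with the larger response in R&Zdel (25.8% of all genes called, 12.7% higher). The difference of the log2 responses was 2.39 for Ddit3 (SE 0.35, adjusted p = 0.00304, edgeR), 2.36 for Atf3 (SE 0.52, adjusted p = 0.0132) and 2.72 for Casp12 (SE 0.71, adjusted p = 0.0239). Casp12 did not pass without R&Zdel CD 4d replicate 2 or R&Zflox CD 4d replicate 1 (adjusted p = 0.112 and 0.113). With library totals alone the median of all genes lay 0.54 higher, the calls went from 1593 higher and 1644 lower to 3832 and 512, and Atf4 (0.74) and Dnajb9 (2.03) passed as well. At CD 50d the response differed for 1 of 10, Herpud1, at -2.25 (SE 0.54, adjusted p = 0.0746), against 3.75% of all genes (2.71% lower). Herpud1 did not pass there with library totals alone (-1.97, adjusted p = 0.147, with the median of all genes 0.29 higher and 3 calls over all genes in place of 471), in males alone, or without any 1 of 6 libraries: R&Zdel 7M replicate 1, R&Zdel 3M replicate 4, R&Zdel CD 50d replicates 1 and 2, R&Zflox 3M replicate 2 and R&Zflox 7M replicate 5. At CD 170d 0 of 10 were called (edgeR's quasi-likelihood test, 0% of all genes), with 2 at an unadjusted p below 0.05 (7.55%) and 0 by DESeq2 and by the likelihood ratio test (0.334% by each).

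After partial hepatectomy 1 of the 10 genes was called. Herpud1 was lower in R&Zdel at 7 days, against 0.353% of all genes called (0.149% lower). It was at 88.4, 90.4 and 146.0 CPM in R&Zdel and at 201.5, 219.7 and 265.0 CPM in R&Zflox. The genotypes did not overlap, the log2 fold change was -1.16 (SE 0.27, n = 3 and 3), and the adjusted p was 0.0989. The call ended without R&Zdel replicate 2 or 3 or any 1 of the 3 R&Zflox replicates (adjusted p 0.126 to 0.546), in males alone (0.164) and with library totals alone (-1.08, 0.117). Against 1M livers of the same genotype, R&Zdel at PHx 7d lay at -0.89 (SE 0.27, adjusted p = 0.868) and R&Zflox at -0.02 (SE 0.27). At 21 days Herpud1 was at 224.2, 247.9 and 306.6 CPM in R&Zdel and at 215.6, 284.2 and 438.6 CPM in R&Zflox, which overlapped (-0.56, SE 0.27, adjusted p = 0.579). Beside the call at 7 days, 4 of 8 WNT targets rose, 1 of 8 hepatocyte markers fell, and 0 of 6 cholangiocyte and 0 of 8 macrophage markers passed.

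The other genes did not pass after PHx. At 7 days the mRNA of the asparagine synthetase Asns was read at 9.37, 15.2 and 16.8 CPM in R&Zdel and at 0.296, 0.997 and 2.08 CPM in R&Zflox, without overlap (adjusted p = 0.885, edgeR). At 21 days it was at 0.055, 0.399 and 0.887 CPM against 0, 1.65 and 6.89 CPM, so that the order of the genotypes did not hold at the later time. Hspa5 at 7 days was at 535.8, 581.4 and 954.4 CPM in R&Zdel and at 274.8, 444.2 and 1189 CPM in R&Zflox. These overlapped, as did Xbp1 (239.7, 374.9 and 383.8 CPM against 145.7, 226.1 and 290.1 CPM; log2 fold change 0.50, SE 0.29, adjusted p = 0.871). Trib3 at 21 days was at 17.8, 26.5 and 44.5 CPM in R&Zdel and at 0, 9.19 and 18.9 CPM in R&Zflox. Ddit3 at 21 days was at 11.6, 15.4 and 16.8 CPM against 3.79, 10.3 and 10.6 CPM, without overlap (0.51, SE 0.80, adjusted p = 0.929). At 21 days 0 of 10 were called by edgeR's quasi-likelihood test (0.423% of all genes, 23 higher and 31 lower, or 28 and 22 with library totals alone, whose median lay 0.11 higher), 0 at an unadjusted p below 0.05 (8.69%), and 0 by DESeq2 (4.1%) and by the likelihood ratio test (1.07%).

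Within each genotype, livers after PHx were set against the 1M livers, which those comparisons share. By edgeR's quasi-likelihood test 0 of 10 genes were called in R&Zflox at 7 days (0.0235% of all genes) and 21 days (0%), and in R&Zdel at 7 days (0.0157%) and 21 days (0%). In R&Zflox at 7 days 2 of 10 were below an unadjusted p of 0.05 (5.78% of all genes), DESeq2 called 2, Atf3 and Casp12 (1.71%), and the likelihood ratio test 1, Casp12 (0.314%). At 21 days these were 2 (6.94%), 1, Asns (2.87%), and 0 (0.274%). In R&Zdel they were 2 (4.97%), 1, Herpud1 (1.71%), and 0 (0.18%) at 7 days, and 0 (4.9%), 0 (1.55%) and 0 (0.0314%) at 21 days. Hspa5 was at 671.9 to 1051 CPM in R&Zflox at 1M and at 387.6, 444.1 and 492.1 CPM at PHx 21d, without overlap (log2 fold change -0.95, SE 0.36, adjusted p = 0.646). In R&Zdel the same gene was at 374.1 to 587.0 CPM at 1M and at 290.0, 410.0 and 448.8 CPM at PHx 21d, which overlapped. The genotype difference did not change past the threshold between PHx and 1M, or between 7 and 21 days, for any of the 10 genes or for any gene tested (0%). The counts of the 10 genes at an unadjusted p below 0.05, by DESeq2 and by the likelihood ratio test were 2 (6.06%), 1 (1.66%) and 0 (0.102%) between 7 and 21 days. They were 4 (4.73%), 1 (1.32%) and 0 (0.0862%) between PHx 7d and 1M, and 1 (5.77%), 0 (2.15%) and 0 (0.0941%) between PHx 21d and 1M.

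**Figure D3:**
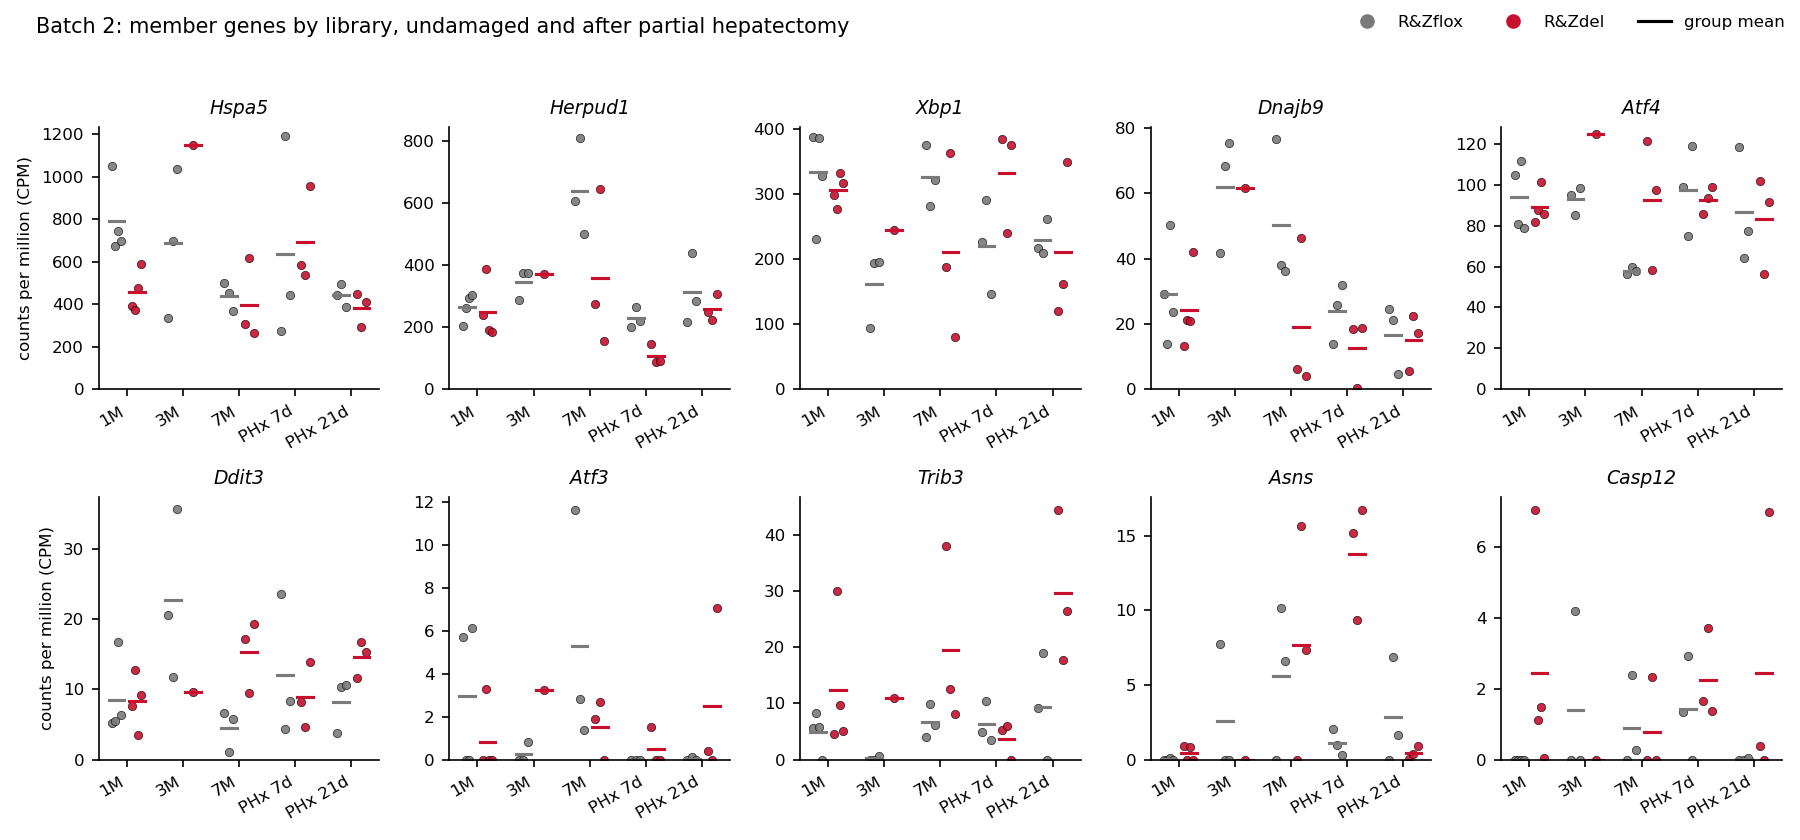
Each panel plots 1 gene, with the level of each batch 2 library in CPM on the vertical axis, for undamaged livers of 1, 3 and 7 months (1M, 3M and 7M) and livers 7 and 21 days after partial hepatectomy (PHx); points are libraries and bars group means. Where R&Zdel had more than 1 library, Herpud1 at PHx 7d and Hspa5 at 1M were lower in every R&Zdel library than in every R&Zflox library. Asns at PHx 7d, Ddit3 at 7M and at PHx 21d, and Casp12 at 1M were higher in every R&Zdel library, the last by no more than a count of 0 allows. Atf3, Casp12 and Asns were at 0 in many libraries.

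The other genes of the pathway were taken from 5 lists, 75 genes in all without the 10, of which 70 were tested in the CCl4 fit. At CD 4d 11 were higher and 10 lower in R&Zdel (30%, against 27.6% of all genes), but with library totals alone 25 were higher and 2 lower. Of the 16 ER folding genes 0 rose and 2 fell on the TMM scale, Ero1lb, an oxidase for disulfide bonds (-1.03, adjusted p = 0.0252), and the disulfide isomerase P4hb (-0.61, adjusted p = 0.0961), and 0 passed either way on library totals. Of the 10 genes of ER degradation 0 rose and 4 fell, among them Derl1 (-0.61), Derl2 (-0.71) and Vimp (-0.65), which carry proteins out of the ER, whereas on library totals 2 rose and 0 fell. The 12 sensors and regulators split into 2 higher and 2 lower, or 3 higher and 1 lower on library totals: Eif2ak2, the kinase PKR, rose (1.35, adjusted p = 0.0152), while the haem-regulated kinase gene Eif2ak1 (-0.66) and Creb3l3, a liver factor of the ATF6 kind, (-1.04) fell.

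Of the 27 targets of ATF4 and CHOP 23 were tested at CD 4d, and 4 rose and 2 fell, against 12 and 1 on library totals. Vldlr, a lipoprotein receptor, rose by 4.63 (adjusted p = 0.00121, edgeR) and Sesn2, a stress-induced regulator of amino acid sensing, by 1.37 (adjusted p = 0.0174), while the transcription factor gene Atf5 fell by 1.13 (adjusted p = 0.0117). The cytosolic heat shock genes, which answer to unfolded proteins outside the ER, gave 5 higher and 0 lower of 9 tested, and 8 higher on library totals. Among them were Dnajb1 (1.34), Hsph1 (1.91) and Hspa1b (2.24), with adjusted p of 0.0039, 0.00935 and 0.014. The median log2 fold changes of the 5 lists, in this order, were -0.51, -0.52, -0.11, -0.01 and 0.65, beside 0.05 for all genes on the TMM scale.

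At CD 50d 2 of the 70 list genes were higher and 7 lower in R&Zdel (12.9%, against 6.68% of all genes), while with library totals alone 1 was higher and 0 lower. Manf (-1.89) and Hyou1 (-1.55), an ER stress-induced factor and an ER chaperone, fell on the TMM scale, 2 of 16 folding genes. Syvn1 (-1.999), the ubiquitin ligase that marks ER proteins for degradation, and Edem1 (-0.96), which directs misfolded glycoproteins to it, fell, 2 of 10. Eif2s1, the gene of eIF2-alpha itself, fell by 1.07 (adjusted p = 0.0692), 1 of 12. Vldlr was higher (2.71, adjusted p = 0.069), 1 of 23, and also on library totals. Of the heat shock genes Hspb1 rose (1.34, adjusted p = 0.0976) and Dnaja1 (-0.84) and Hsph1 (-1.63) fell. At CD 170d 1 of 70 was called, Vldlr (2.83, adjusted p = 0.0386).

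**Figure D4:**
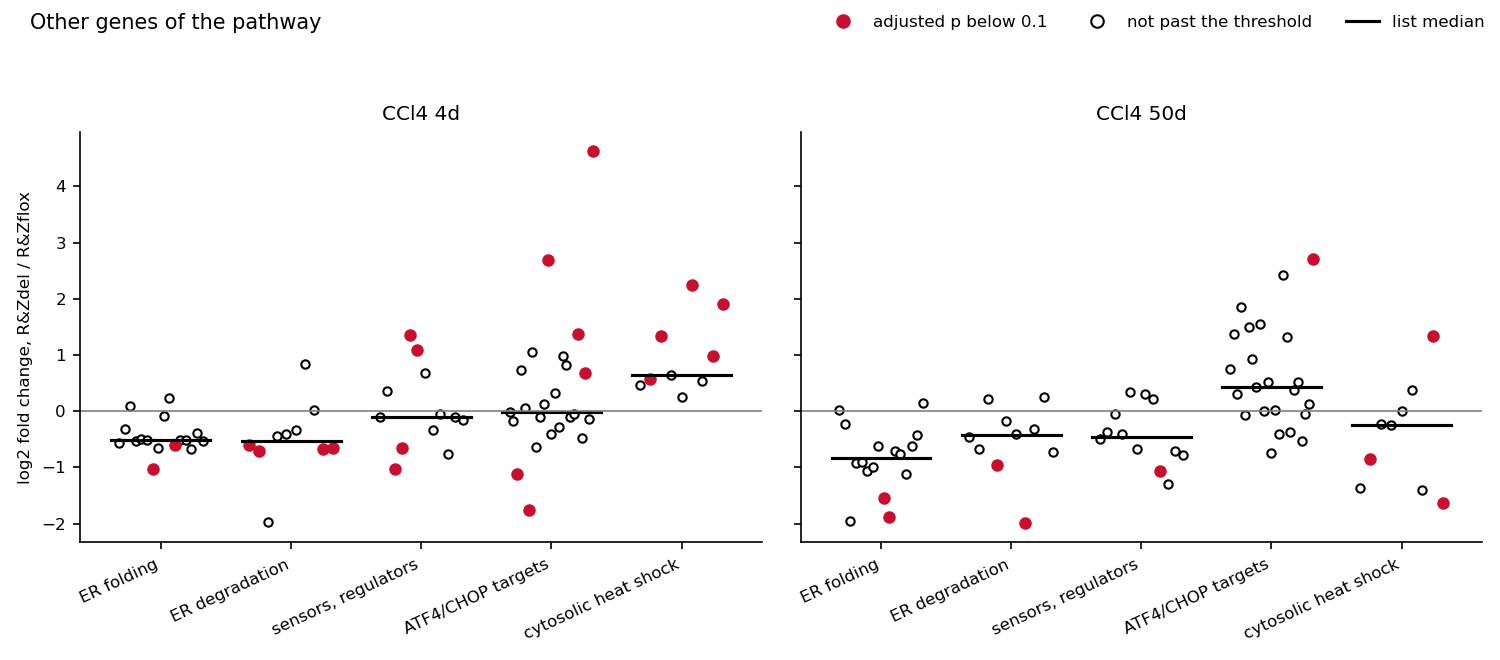
Each point is 1 gene of a pathway list, with its log2 fold change of R&Zdel against R&Zflox (vertical axis, TMM scale) at 4 and 50 days after the last CCl4 dose, filled red where the adjusted p was below 0.1, and bars are list medians. At 4 days 11 of the 70 genes were called higher and 10 lower, which became 25 and 2 with library totals alone, and at 50 days 2 were higher and 7 lower, which became 1 and 0.

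Against undamaged livers 29 of 71 list genes were called in R&Zdel at CD 4d, 13 higher and 16 lower (40.8%, against 52.3% of all genes), which became 31 higher and 6 lower on library totals. Pck2, the mitochondrial phosphoenolpyruvate carboxykinase, rose (2.24, adjusted p = 0.000323), and the serine and alanine enzyme genes Shmt2 (-1.27) and Gpt2 (-1.24), listed as ATF4 targets too, fell. In R&Zflox at CD 4d 3 rose and 1 fell (5.63%, against 8.21% of all genes), with Pck2 (1.67, adjusted p = 0.00796) and Aldh18a1 (2.69, adjusted p = 0.0343) among those that rose. In R&Zdel at CD 50d 5 rose and 17 fell (31%, against 36.2% of all genes), which became 9 and 7 on library totals. Of those that fell P4hb was at -1.11 (adjusted p = 0.00823) and Eif2s1 at -1.30 (adjusted p = 0.00468), and of those that rose Atf5 at 1.22 (adjusted p = 0.0156). In undamaged livers and after PHx at most 1 list gene was called in a comparison of the genotypes: Fgf21, a hormone gene, at 1M, Aars, an aminoacyl-tRNA synthetase gene, at 7M (1.30, adjusted p = 0.0375) and Aars again at PHx 21d (1.12, adjusted p = 0.0785). Of all genes 0.499%, 0.484% and 0.423% were called in these 3 comparisons.

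Across libraries the 10 genes were compared pair by pair as log2(CPM + 1), with the mean of each group taken out, over the 18 assigned libraries of batch 1 and the 30 of batch 2. The p-values came from 100000 permutations of libraries within groups and were adjusted over the 45 pairs of a batch. In batch 2, 0 of 45 pairs passed 0.05. The smallest permutation p of Pearson's r there was that of the chaperone gene Hspa5 with the cochaperone gene Dnajb9 (r = 0.462, p = 0.0116, adjusted 0.221). For this pair Spearman's rho was 0.522 (permutation p = 0.0152, adjusted 0.251), and r was 0.544 without the 2 libraries farthest from the median of Hspa5. By Spearman's rho the smallest permutation p was that of Hspa5 with Xbp1 (rho = 0.650, p = 0.00684, adjusted 0.251). Pearson's r of that pair was 0.566 (permutation p = 0.0246, adjusted 0.221). In batch 1, where no group holds more than 2 libraries, the permutations allow 256 arrangements and no p below 0.00781, so that no pair could pass on its own after the adjustment. For Hspa5 and Dnajb9 r was 0.613 and rho 0.818 there, with r at 0.552 without 2 libraries, given as a description. The points of a batch share their sequencing run and differ in depth.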

How the data were processed

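Whole-liver RNA was made into Smart-Seq2 libraries and sequenced as single reads on an Illumina HiSeq, in 2 batches. Reads were trimmed (Sickle in the study's methods, Trim Galore in the submitters' processing notes), aligned to mm10 with STAR 2.5.0a and counted on genes with featureCounts. The version was 1.5.0-p3 with the RefSeq annotation of mm10 and no strand in the headers of batch 1, and 1.5.0-p1 in the notes, while the study's methods give another version and the UCSC annotation of mm10 for the RNA-seq as a whole. The authors deposited raw counts per gene, with no normalization, and 53 libraries were analysed here. The authors' files of batch 1 also give exon lengths in bases, used for levels per length.

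Groups were taken from the labels, and of 6 libraries of batch 1 with conflicting labels 5 entered no comparison and R&Zdel 3M replicate 4, titled 7M, was used by its stated time point. Nothing beyond the labels shows that replicates are separate mice. The highest correlation between libraries was 0.9906, and 0 pairs held identical values. The 10 genes and all lists were chosen with earlier results of these data known. Counts of the symbols shared by both batches were tested with edgeR 4.0.16 (R 4.3.3), TMM factors and the quasi-likelihood F test, with Benjamini-Hochberg adjustment over all genes of a fit and a threshold of 0.1. Separate fits held the 25 undamaged libraries (with sex and batch as terms), the 11 CD libraries, the 20 of 1M and PHx (with sex) and the 18 of batch 1 (with sex). Genes needed more than 1 CPM in at least 3 libraries, or 6 in the CD fit. The script was tested on simulated data.

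The genes named from the pathway lists were, per comparison and list, up to 3 with the smallest p among those past the threshold. Alternatives were RLE size factors, library totals alone, no filter, DESeq2 1.42.0, edgeR's likelihood ratio test, the study's rule (besides, a change of more than 1 on the log2 scale, up or down, and after PHx an unadjusted p below 0.05 in place of the adjusted one), males alone, single batches, conflicting libraries placed, each library left out, and a replicate block. Library totals alone were chosen after seeing the data. The smallest total count was 11721687, and intervals and limits for 0 counts cover counting error only.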

Additional observations from a re-analysis of the deposited data

Results flagged for a closer look

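Of 50 groups of 4 or 5 libraries of 1 gene, 7 held a library far from the others by Dixon's test, where chance gives about 1 in 20 groups of normally distributed values. The test was run on CPM, which are bounded at 0, so that the count of 7 cannot be read against that rate. These were Hspa5 in R&Zdel 7M replicate 4 (617.6 CPM), Atf3 in R&Zdel 1M replicate 2 (3.30 CPM) and in R&Zflox 7M replicate 3 (11.6 CPM), Ddit3 in R&Zflox 1M replicate 3 (16.8 CPM), Dnajb9 in R&Zflox 7M replicate 3 (76.7 CPM), Casp12 in R&Zflox 3M replicate 4 (4.18 CPM) and Asns in R&Zflox 1M replicate 3 (0.127 CPM). The value of Asns rests on 3 counts against 0 in the other 3 libraries, no more than a count of 0 allows, so that this library is not apart from the others at this depth. The 7M and 3M groups mix both batches.

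In 8 cases a test of the difference between conditions passed for 1 of the 10 genes. From CD 4d to CD 50d the genotype difference in log2 level changed by -3.13 for Atf3 and -3.57 for Dnajb9, and from CD 4d to CD 170d by -2.68 for Atf3 and -2.73 for Ddit3. The response to damage in R&Zdel minus that in R&Zflox was 2.36 for Atf3, 2.72 for Casp12 and 2.39 for Ddit3 at CD 4d, and -2.25 for Herpud1 at CD 50d. These results share the CD 4d libraries or the undamaged ones.

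The 5 libraries of batch 1 outside all comparisons gave 11 of 50 values above the highest of the 4 undamaged R&Zflox libraries of batch 1. The share over all genes was not computed, and whether this count exceeds what similar libraries would give was not tested. Library i704_i502 held Atf3 at 4.54 CPM, Atf4 at 140.4 CPM, Ddit3 at 18.3 CPM, Trib3 at 17.7 CPM and Casp12 at 3.49 CPM. Library i705_i503 held Atf3 at 3.62 CPM and Casp12 at 3.40 CPM. Library i711_i503 held Atf3 at 5.17 CPM and Herpud1 at 844.0 CPM, library i701_i503 Herpud1 at 602.7 CPM and library i707_i517 Casp12 at 2.20 CPM. The highest R&Zflox values were 2.81 CPM for Atf3, 112.4 CPM for Atf4, 12.0 CPM for Ddit3, 13.9 CPM for Trib3, 1.81 CPM for Casp12 and 498.9 CPM for Herpud1.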

How the results depend on the processing

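No call of a gene among the 10 changed sign under any alternative run, and RLE size factors left each comparison's count of the 10 genes within 1.5 times. The other counts of the 10 genes past the threshold moved as follows, and the causes were not tested.

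At 1M the count of 0 became 1 by DESeq2, by the likelihood ratio test and with the replicate block. DESeq2 also gave 1 for the change of the genotype difference from 1M to 3M and from 1M to 7M. At CD 50d the count of 2 became 7 without the filter, 5 by DESeq2 and by the likelihood ratio test, and 6 with the 2 doubtful libraries at 50 days. At CD 170d the count of 0 became 2 without the filter and 1 by each of the other tests. For the difference from CD 4d to 50d the count of 2 became 7 without the filter, 6 by DESeq2, 5 by the likelihood ratio test and 4 with the doubtful libraries at 50 days, and for that from CD 4d to 170d it became 5, 4 and 4. At PHx 7d the count of 1 became 2 by DESeq2 (Atf3 and Herpud1) and 0 with library totals alone, in males alone and with the replicate block. The study's rule takes an unadjusted p after PHx. Against 1M, R&Zflox gave 2 by DESeq2, 1 by the likelihood ratio test and 2 by the study's rule at PHx 7d, and 1 without the filter, by DESeq2 and by the study's rule at PHx 21d, and R&Zdel 1 by DESeq2 and by the study's rule at PHx 7d, in place of 0. The differences between PHx 21d and 7d gave 1 by DESeq2 and by the study's rule, between PHx 7d and 1M 1 and 2, and between PHx 21d and 1M 1 by the study's rule, in place of 0.

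Against undamaged livers, the count of 1 in R&Zflox at CD 4d became 0 with library totals alone and by the study's rule, 3 without the filter and 2 in males alone. That of 0 became 3 without the filter and 1 by the likelihood ratio test at CD 50d, and 1 without the filter at CD 170d. In R&Zdel the filter's absence gave 8 in place of 4 at CD 50d and 3 in place of 0 at CD 170d. The response difference of 3 at CD 4d became 5 with library totals alone and 6 without the filter. That of 1 at CD 50d became 0 with library totals alone and in males alone, 5 without the filter, 2 by DESeq2 and by the likelihood ratio test, and 4 with the doubtful libraries at 50 days, and that of 0 at CD 170d became 3 without the filter.

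With each library left out in turn the count was 2 to 4 at CD 4d, 0 to 2 at CD 50d, 0 to 1 at CD 170d, 0 to 3 and 1 to 3 for the differences of CD 50d and 170d from 4d, 0 to 1 at PHx 7d, 0 to 2 in R&Zflox CD 4d, 4 to 6 and 1 to 4 in R&Zdel CD 4d and 50d, 2 to 4 and 0 to 3 for the response differences at CD 4d and 50d, and 0 elsewhere. The single R&Zflox CD 50d library could not be left out.

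Over all genes the 3116 calls at CD 4d became 4803 with library totals alone, 1707 by the study's rule and 895 to 1998 with a library left out, and the 754 at CD 50d became 257, 2166 without the filter, 1486 by DESeq2, 1344 by the likelihood ratio test, 3078 with the doubtful libraries at 50 days and 14 to 845 with a library left out. At CD 170d 74 became 780 without the filter, 346 by DESeq2, 311 by the likelihood ratio test and 6 to 392 with a library left out. At PHx 7d 45 became 125, 252 and 78 in that order and 510 by the study's rule with its unadjusted p, at PHx 21d 54 became 186 without the filter, 137 by the likelihood ratio test, 838 by that rule and 4.1% of all genes by DESeq2, and for the response at CD 50d 471 became 1629 without the filter, 1359 by DESeq2, 1134 by the likelihood ratio test, 3 with library totals alone and 0 in males alone. At 1M 64 became 137, 346 and 201, at 3M 29 became 75, 145 and 66, and at 7M 62 became 126, 263 and 101, or 42 to 306 with a library left out. For the differences of CD 50d and 170d from 4d, 172 and 855 became 1067 and 2393 without the filter, 656 and 1539 by DESeq2, 584 and 1429 by the likelihood ratio test, and 8 to 779 and 73 to 1979 with a library left out. In R&Zflox CD 4d against undamaged livers 1032 became 149 to 987, and in R&Zdel 6573 at CD 4d and 4543 at CD 50d became 4103 to 6591 and 2221 to 5153. The response differences of 3237 at CD 4d and 471 at CD 50d became 1123 to 3758 and 0 to 2241, and the counts at 1M, 3M, PHx 7d and PHx 21d 33 to 52, 10 to 32, 21 to 64 and 29 to 83.

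Replicate numbers of the labels were not treated as pairing. Libraries of the same number correlated by -0.08 to -0.05 at 1M and by -0.18 to 0.42 at 7M. Of these, 0 of 8 and 3 of 8 correlated best with their own number, as did 0 of 6 at PHx 7d and at PHx 21d. Group means alone were removed, and at 1M libraries of the same number were of opposite sex in the 2 genotypes. At 7M replicate 1 was of batch 1 in both genotypes, while replicate 2 was of batch 1 in R&Zdel and batch 2 in R&Zflox. These correlations therefore cannot decide whether the numbers mark pairs. With the replicate block Hspa5 passed at 1M (-0.97, adjusted p = 0.031), Herpud1 did not pass at PHx 7d (-1.20, adjusted p = 0.585), and the calls over all genes were 140 in place of 64 at 1M, 0 in place of 62 at 7M, 5485 in place of 3116 at CD 4d, 0 in place of 74 at CD 170d, 23 in place of 45 at PHx 7d and 24 in place of 54 at PHx 21d. Depth limits the low genes of batch 2, where counts of 0 were common.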
